A study of Sus scrofa with 12 samples.

Results

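Beta-actin, the product of the gene ACTB, is a common reference gene of quantitative PCR (qPCR), and the study lists primers for it beside those of the genes it measured by qPCR. Its own level in the RNA sequencing of the same tissues is described here. The gene was found as the identifier that the gene table of the study for fat gives for ACTB, ENSSSCG00000007585, and it is 1 of 31903 identifiers measured. RefSeq places it on chromosome 3 of Sscrofa11.1, from 4084275 to 4090383, as a protein-coding gene. It was chosen for its difference between the back fat groups, so its values in those 6 libraries are given as a description, with no test. Its values in muscle were not part of that contrast, while the difference between the tissues uses the same 6 fat libraries on one side.

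The samples were back subcutaneous fat and longissimus dorsi muscle of unmated sows of Dingyuan, a native Chinese pig breed, all 300 days old. The fat was split into low back fat (LBF) and high back fat (HBF), and the muscle into low intramuscular fat (LIMF) and high intramuscular fat (HIMF), with 3 libraries in each group and 12 in all. The labels name no treatment or altered allele, and the groups were drawn from animals at the extremes of fatness. The descriptions of the fat and muscle libraries carry the same numbers in pairs, but the labels do not state whether such a pair came from the same pig, or that the replicates of a group are different pigs, and p-values measure only the spread between these libraries.

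Actin monomers assemble into the filaments that give a cell its shape, its contacts and its movement. Mammals carry 6 actin genes. ACTB and ACTG1 encode the cytoplasmic forms, which nearly every cell makes, while ACTA1 and ACTC1 encode those of striated muscle and ACTA2 and ACTG2 those of smooth muscle. Because most cells hold much beta-actin, its mRNA is widely used as a reference: the amount of another mRNA is divided by it to correct for unequal input of RNA. That division is neutral only where the reference itself stays level. The serum response factor SRF drives, with its partners MRTFA and MRTFB that sense free actin, transcription of ACTB and of many other cytoskeleton genes.

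The primer pair that the study lists for beta-actin is shown here, 5′ to 3′ in lower case, since it names the gene described. The methods used here do not state in words which gene served as the reference of the qPCR.
β-actin-F: ggacttcgagcaggagatgg
β-actin-R: aggaaggagggctggaagag
Each primer has 20 bases, with a GC content of 60.0%. The pair is named for beta-actin in the study's primer list. Its match to ACTB or ACTG1 was not tested, and the qPCR values were not analysed here.

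Expression was measured as FPKM, the fragments of a gene scaled to the length of its transcripts and to the mapped fragments of the library, so levels of different genes are per length. The deposited values carry no counts, and the depth behind each value is unknown from them. The FPKM of a library summed to between 420982 and 517796. The tissues matched their labels: the summed FPKM of 6 adipocyte markers ranged from 7571 to 12280 in fat and from 76.5 to 178 in muscle, and that of 5 skeletal muscle markers from 0.591 to 196 in fat and from 3969 to 23110 in muscle. The 196 was LBF replicate 3, and the other fat libraries reached at most 2.47. Some abundant muscle genes, ACTA1 and GAPDH among them, were listed at exactly 0 in some muscle libraries and far above that in others, so these zeros can be failed estimates.

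ACTB was at 346, 451 and 424 FPKM in the 3 LBF libraries, a mean of 407 ± 54.5 (SD, n = 3). In HBF it was at 1192, 1381 and 926 FPKM, a mean of 1166 ± 228 (SD, n = 3). LIMF held 66.6, 69.7 and 129 FPKM, a mean of 88.4 ± 35.1 (SD, n = 3), and HIMF 112, 58.8 and 72.7 FPKM, a mean of 81.2 ± 27.6 (SD, n = 3). The order of the groups was therefore HBF, LBF, LIMF and HIMF. Each HBF library lay above each LBF library and each fat library above each muscle library, whereas the LIMF and HIMF libraries overlapped. Relative to its mean, the gene varied least in LBF, with a coefficient of variation of 13.4%, and most in LIMF, with 39.7%.

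**Figure D1:**
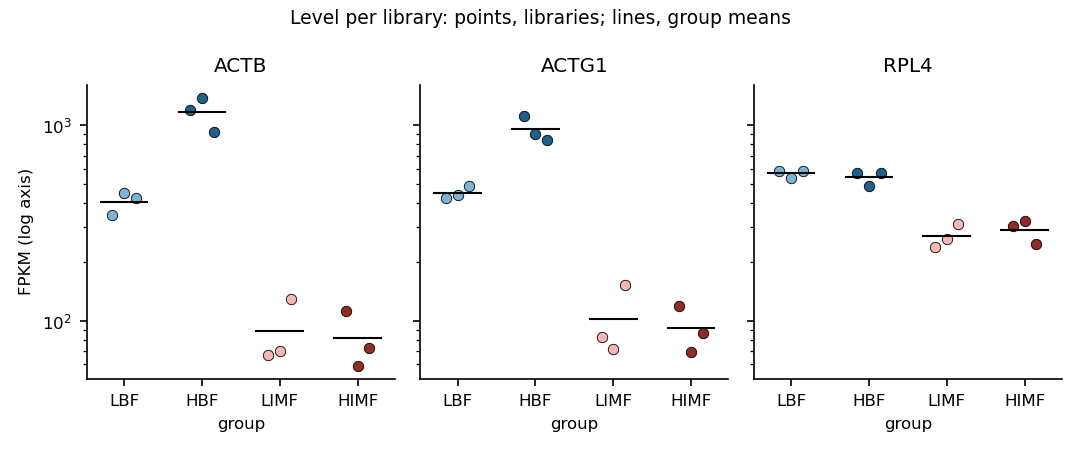
FPKM on a log axis of ACTB, of its cytoplasmic sister gene ACTG1 and of the ribosomal protein gene RPL4, with a point for each library and a line at the mean of each group of 3. ACTB and ACTG1 stand higher in HBF than in LBF and lowest in muscle, while RPL4 stays between 491 and 586 FPKM in all 6 fat libraries.

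Within each library, ACTB was among the most abundant transcripts of the fat and well down the list in the muscle. Ranked from the highest FPKM it stood at places 144, 107 and 119 in LBF and at places 44, 34 and 44 in HBF. Its places were 607, 653 and 392 in LIMF and 412, 756 and 613 in HIMF. As a share of all FPKM of a library, it held 0.0673% to 0.103% in LBF, 0.184% to 0.288% in HBF and 0.0118% to 0.0299% in the 6 muscle libraries. The ranks and the shares separate the same groups as the FPKM.

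Between the back fat groups, ACTB was 2.85-fold higher in HBF, a log2 difference of 1.51 (SE 0.22) on the scale log2(FPKM + 0.1), on which all differences here are given. The difference lay between 1.38 and 1.67 when any 1 of the 6 libraries was left out. Groups that do not overlap, with HBF higher, were found for 13.9% of the 16239 genes compared, and ACTB is one of them by its choice. Of all these genes, 136 had a larger difference towards HBF, and of the 483 genes with a mean above 100 FPKM, 4 did. Over all genes the median difference was 0.09.

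Markers of other cell types of fat are given beside that difference, since in bulk tissue fewer cells of a type and less RNA per cell cannot be told apart. The summed FPKM of 5 endothelial markers was 152 to 314 in LBF and 266 to 414 in HBF, and that of 6 leukocyte and macrophage markers 36.9 to 110 in LBF and 95.2 to 101 in HBF. The 6 smooth muscle and pericyte markers, which include the cytoskeleton genes TAGLN, ACTA2 and CNN1, summed to 182 to 200 FPKM in LBF and 270 to 414 in HBF. Within that sum, TAGLN stood higher without overlap, while DES differed by -2.01 (SE 1.02) and RGS5 by -0.81 (SE 0.39) on the log2 scale with overlapping groups. The sums of the 6 fibroblast markers overlapped, with 2346 to 7525 in LBF and 1618 to 3808 in HBF. The 6 adipocyte markers overlapped too, at 7697 to 9689 and 7571 to 12280. Higher without overlap in HBF were 1 of 6 adipocyte, 1 of 5 endothelial, 2 of 6 leukocyte, 1 of 6 smooth muscle and 0 of 6 fibroblast markers, where 13.9% of all genes were. The leukocyte pair was the macrophage receptor CSF1R, with 10.6 to 25.3 FPKM in LBF and 28.3 to 31.0 in HBF, and the endotoxin coreceptor CD14, with 5.88 to 11.97 and 12.8 to 17.7. CD163 and LYZ of that list differed by -0.32 (SE 0.51) and -1.70 (SE 1.30), with overlapping groups. Of the adipocyte markers, LPL was lower without overlap, where 6.46% of all genes were. Hemoglobin HBB, a marker of blood, was at 250 to 619 FPKM in LBF and 48.5 to 190 in HBF. Skeletal muscle markers stood out in LBF replicate 3, without which the ACTB difference was 1.54. Except for that library, the part of these cell types in the ACTB difference was not tested.

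In the muscle, ACTB did not differ detectably between HIMF and LIMF. The log2 difference was -0.11 (SE 0.34), with a 95% confidence interval of -0.89 to 0.68, an adjusted p of 0.961 (limma, Benjamini-Hochberg over 14292 genes) and an exact permutation p of 0.7, two-sided, where 3 libraries against 3 allow no p below 0.1. The interval leaves room for a change of either sign. The sign rested on single libraries: the difference was 0.20 without LIMF replicate 3 and 0.10 without HIMF replicate 2. The difference between the fat effect and the muscle effect was not tested, since the fat effect was the reason for the choice.

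Between the tissues, ACTB fell from fat to muscle. The log2 difference of the 6 muscle from the 6 fat libraries was -3.07 (SE 0.21), with a 95% confidence interval of -3.53 to -2.60, which is 8.39-fold lower in muscle, with an adjusted p of 8.2e-08 (limma over all 12 libraries and 15965 genes). The exact permutation p was 0.00216, two-sided, the smallest that the 924 relabellings can give. Both tests treat the 12 libraries as unpaired, and if fat and muscle came from the same pigs, fewer relabellings would be open and the smallest p would be larger. At an adjusted p under 0.05 and a log2 difference of -1 or less, 48.3% of all genes were called lower in muscle and 9.67% were called higher, and muscle lay below fat without overlap for 49.3%, so a lower level there was common. The size of the ACTB difference was less common, as 1514 genes had a lower value. The median over all genes was -0.97, and with median-of-ratios scaling, which brings it to -0.54, ACTB was at -2.51. Compared group by group, the level was 4.79-fold lower in LIMF than in LBF and 14.7-fold lower in HIMF than in HBF.

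ACTG1, the other cytoplasmic actin, on chromosome 12 from 1320355 to 1323219, followed ACTB in level and direction. It measured 426, 440 and 488 FPKM in the LBF libraries and 1110, 907 and 839 in those of HBF, so that its groups did not overlap either. Its log2 difference was 1.07 (SE 0.19), with an unadjusted p of 0.000662 and an adjusted p of 0.198 from limma, which did not pass. In muscle it measured 82.2, 71.3 and 152 FPKM in the LIMF libraries and 119, 69.0 and 86.3 in those of HIMF, a difference of -0.11 (SE 0.34). LIMF replicate 3 and HIMF replicate 1 held the highest values of both genes in muscle. From fat to muscle ACTG1 fell by 2.82 on the log2 scale (SE 0.20), with an adjusted p of 1.04e-07 (limma).

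The balance of ACTB and ACTG1 was near even in most libraries. ACTB was 0.812, 1.02 and 0.869 times ACTG1 in LBF and 1.07, 1.52 and 1.10 times in HBF. In muscle the ratio stayed between 0.811 and 0.977 in all 6 libraries. The proteins are nearly identical and the coding parts of the genes alike, so fragments could be assigned to either one, and the ratio is uncertain for that reason. Their sum is less open to that assignment, though each is scaled to its own transcript length, and it was higher in HBF by 1.30 on the log2 scale, as a description, and differed between HIMF and LIMF by -0.11.

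The groups of the tissue-specific actins overlapped in fat, and their differences were not tested against that of ACTB. ACTA2, the smooth muscle actin of vessel walls, measured 61.0, 68.9 and 58.2 FPKM in the LBF libraries and 45.5, 102 and 95.4 in those of HBF, a log2 difference of 0.29 (SE 0.30). ACTG2, the enteric smooth muscle form, differed by -0.13 (SE 1.22) and ACTC1, the cardiac form, by 0.40 (SE 0.35), both with overlapping groups. ACTC1 was at only 0.0690 to 0.271 FPKM in fat, near the 0.1 added before the logarithm. ACTA1, the skeletal muscle actin, was at 107 FPKM in LBF replicate 3 and at or below 0.682 in the other 5 fat libraries. In muscle, where ACTA1 should lead, it was listed at 0 in all 3 LIMF libraries and in HIMF replicate 1 and at 9637 and 8025 FPKM in the other two, so no fold is given. ACTC1 was called higher in muscle, with a log2 difference of 3.91 (SE 0.43, adjusted p 4.2e-06, limma). Called lower there were ACTG2, at -3.17 (SE 0.79, adjusted p 0.00283, limma), and ACTA2, at -1.45 (SE 0.33, adjusted p 0.00149, limma). Of all genes, 9.67% were called higher and 48.3% lower.

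Genes of the actin cytoskeleton and targets of SRF, a list of 38 without ACTB of which 36 could be matched, leaned towards HBF with ACTB. Of the 35 that were tested in fat, 21 were higher in each HBF library than in any LBF library, against 13.9% of all genes, and 1 was lower, against 6.46%. At an unadjusted p under 0.05, 18 were higher and 1 lower, against 9.36% and 4.22% of all genes. None passed the limits of the study, an adjusted p under 0.01 and a log2 difference of at least 1 either way, as was true of all 16239 genes in limma. The median of the list was 0.36, beside 0.09 over all genes. CCN2, TAGLN and ACTN2 are also among the genes that the study listed as changed in fat on these samples, so their direction is no independent evidence.

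**Figure D2:**
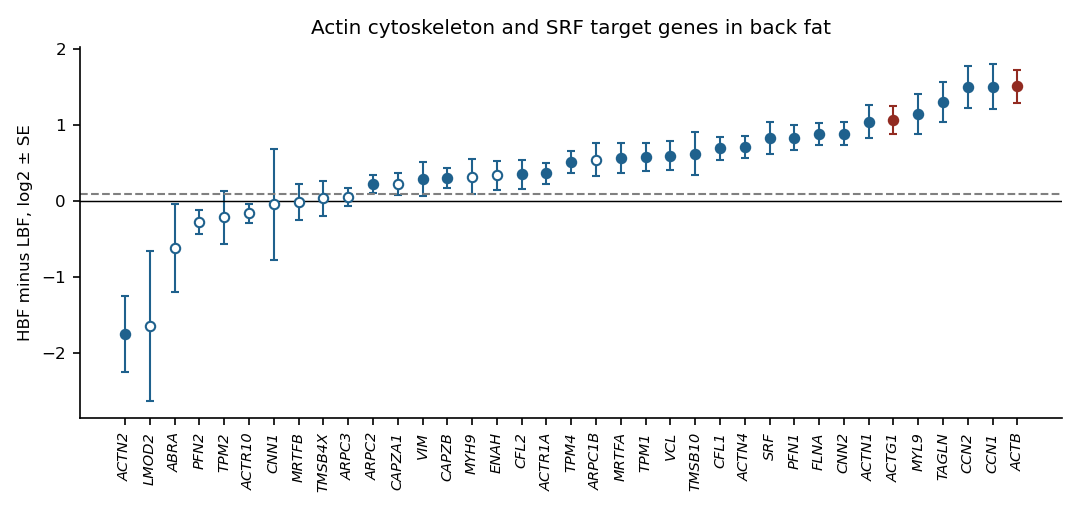
Log2 difference of HBF from LBF with its SE for 35 cytoskeleton and SRF target genes and, in red, ACTB and ACTG1. Filled points mark genes whose groups of 3 do not overlap, and the dashed line is the median of all genes; ACTB stands at the top with CCN1 and CCN2, and ACTN2 at the bottom.

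Matricellular genes stood highest in that list. CCN2, a secreted growth factor of connective tissue and a known SRF and YAP target, measured 38.6, 23.2 and 30.4 FPKM in the LBF libraries and 110, 93.0 and 60.6 in those of HBF, a difference of 1.50 (SE 0.27), and CCN1 differed by 1.51 (SE 0.30). The actin-bundling gene TAGLN measured 71.7, 92.8 and 85.8 FPKM in the LBF libraries and 219, 280 and 139 in those of HBF, a difference of 1.30 (SE 0.26). Its highest and lowest HBF libraries were those of ACTB. MYL9, a myosin light chain, differed by 1.15 (SE 0.26) and ACTN1, an alpha-actinin that cross-links filaments, by 1.04 (SE 0.22).

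Further members of the list are given with their values. FLNA, which links filaments to the membrane, measured 30.7, 27.6 and 38.7 FPKM in the LBF libraries and 59.8, 58.1 and 59.2 in those of HBF, a difference of 0.88 (SE 0.15). PFN1, which delivers actin monomers, differed by 0.84 (SE 0.17) and CFL1, which severs filaments, by 0.69 (SE 0.16). SRF itself differed by 0.83 (SE 0.21) and MRTFA by 0.57 (SE 0.20), while MRTFB was at -0.01 (SE 0.24). ARPC3, a subunit of the complex that branches filaments, was at 94.4 to 104 FPKM in LBF and 95.9 to 111 in HBF, and TMSB4X, which holds monomers, at 559 to 841 and 588 to 808. Both overlapped, so not every actin regulator followed ACTB. The single gene lower in each HBF library was ACTN2, the alpha-actinin of striated muscle, at 0.856, 1.49 and 3.48 FPKM in LBF and at 0.265 to 0.529 in HBF. Its highest value was in LBF replicate 3, the library with skeletal muscle markers.

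In muscle the counts of the same list went the other way, with 1 of 36 genes higher and 6 lower without overlap and a median of -0.10, beside 0.04 over all genes. MRTFA was the single gene higher in each HIMF library, at 1.45 to 2.24 FPKM in LIMF and 3.31 to 3.90 in HIMF, where 7.93% of all 14292 genes did so. PFN2, ACTN2, LMOD2, ENAH, ABRA and XIRP1 were lower in each HIMF library, where 4.74% of all genes did so. All of the latter but ACTN2 are also on the study's own list of genes changed in muscle, chosen on these samples, so their direction is no independent evidence. LMOD2, ABRA and XIRP1 belong to the sarcomere and its signalling in striated muscle, and ENAH extends filament ends. XIRP1 fell outside the genes tested in fat and was at 141 to 481 FPKM in LIMF and 26.8 to 69.1 in HIMF. None of the 7 passed the limits in limma, with the smallest adjusted p of all genes at 0.362.

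Between the tissues, 19 of the 36 genes were called lower in muscle with ACTB and 9 higher, where 48.3% and 9.67% of all genes were. The share called lower was near that of all genes. VIM, an intermediate filament of mesenchymal cells, fell by 5.58 on the log2 scale (SE 0.16), from 1534 to 2094 FPKM in fat to 27.9 to 56.1 in muscle. CFL1 fell by 3.24 (SE 0.15) and FLNA fell by 3.01 (SE 0.20). The muscle forms of the same families went the other way: CFL2 rose by 2.53 (SE 0.15), TPM2 by 6.59 (SE 0.24) and ACTN2 by 9.21 (SE 0.28). Each of these had an adjusted p of at most 6.51e-08 in limma.

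Other commonly used reference genes are given beside ACTB, which was itself chosen for its difference in fat. Of 20 such genes fixed as a list without ACTB, 14 could be matched, while B2M, TBP, PPIA, RPL32, RPL13A and EEF1A1 could not. HBF lay above LBF without overlap for 4 of the 14, ACTG1, HPRT1, YWHAZ and GUSB, against 13.9% of all genes, and below it for GAPDH, against 6.46%. Only ACTG1 differed by 1 or more on the log2 scale, and the median of the 14 was 0.09, beside 0.09 over all genes. No test compares ACTB with them in fat.

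**Figure D3:**
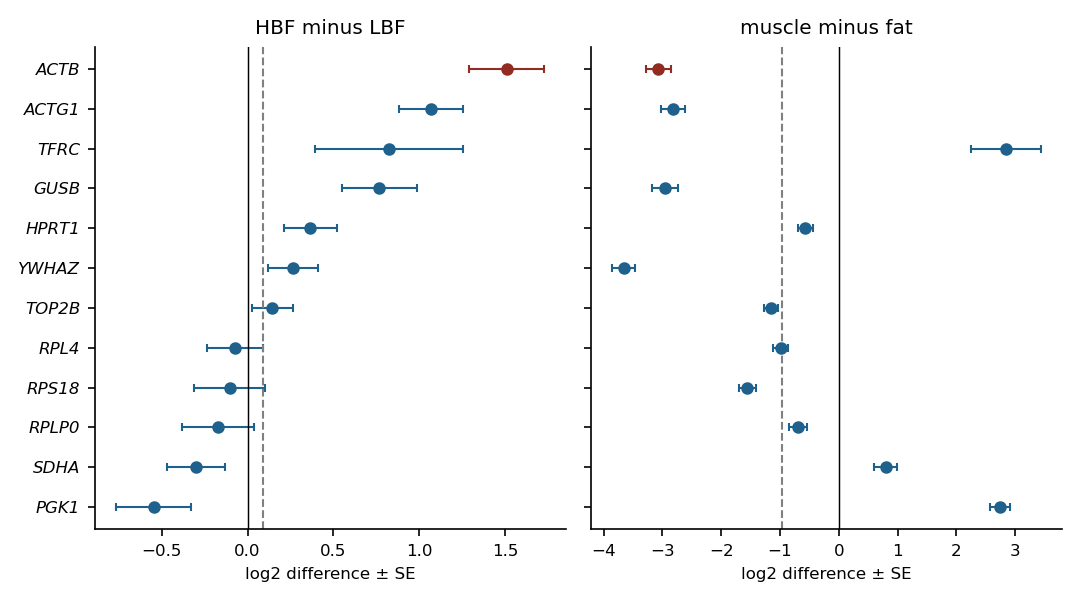
Log2 difference with its SE of ACTB, in red, and of 11 other reference genes, for HBF minus LBF on the left and muscle minus fat on the right; dashed lines are the medians of all genes. GAPDH, listed at 0 in a muscle library, is not shown. On the left ACTB, chosen for that difference, is at 1.51, and on the right YWHAZ lies below it and GUSB and ACTG1 close to it.

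RPL4, a protein of the large ribosomal subunit, measured 585, 538 and 586 FPKM in the LBF libraries and 570, 491 and 567 in those of HBF, a log2 difference of -0.07 (SE 0.16). TOP2B, a topoisomerase, differed by 0.14 (SE 0.12). GAPDH, the glycolytic enzyme most often paired with beta-actin as a reference, measured 1122, 1106 and 1168 FPKM in the LBF libraries and 793, 532 and 879 in those of HBF, a difference of -0.66 (SE 0.24, unadjusted p 0.0281, adjusted p 0.324, limma). ACTB and GAPDH therefore lay on opposite sides of 0 in fat. GAPDH relative to ACTB differed by -2.16.

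Between the tissues, reference genes moved in both directions. YWHAZ, a 14-3-3 adaptor protein, fell by 3.65 (SE 0.20), from 131 to 191 FPKM in fat to 7.96 to 18.1 in muscle. PGK1, a glycolytic enzyme, rose by 2.75 (SE 0.17), from 51.2 to 113 FPKM in fat to 299.8 to 603 in muscle. Calls at the tissue limits were made for 5 of the 14 as lower and 2 as higher in muscle, against 48.3% and 9.67% of all genes. GAPDH was listed at 0 in LIMF replicate 2 and at 10390 to 17510 FPKM in the other 5 muscle libraries.

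The genes most like ACTB over all 12 libraries were found by the Pearson correlation of log2 values with ACTB among 11081 genes with a mean above 1 FPKM. ACTG1 was first with an r of 0.993, followed by CDR2, ADAMTS1, GJA5, TAGLN, VASP, PTPRE, RHOB, PHLDA2 and TNFAIP1, the last with 0.984. These values are descriptions, since the 12 points fall into tissues and share their libraries. VASP, which elongates filaments, was at 21.2 to 29.8 FPKM in LBF, 38.9 to 50.7 in HBF and 3.48 to 7.82 in muscle. RHOB, a small GTPase of the cytoskeleton, was at 39.8 to 71.8, 94.1 to 166 and 7.05 to 16.4 FPKM in the same order. GJA5, a gap junction gene of arterial endothelium, was at 6.80 to 10.2 FPKM in LBF and 13.4 to 29.0 in HBF. As likeness to ACTB over libraries that include the fat was the rule, a higher level in HBF was chosen with them.

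Over the 6 fat libraries alone, a different set of genes was closest to ACTB. Those of the 10 highest that are described here are MAK16, CTSA, SHOC2, MEX3D, GPSM3, BCORL1 and BIRC6. CTSA, a lysosomal protease, measured 52.1, 63.2 and 63.6 FPKM in the LBF libraries and 101, 108 and 85.1 in those of HBF. MAK16, a factor of ribosome assembly, measured 12.7, 13.6 and 13.1 FPKM in the LBF libraries and 16.3, 16.6 and 15.1 in those of HBF, with an r of 0.994. Its log2 difference was 0.28, far below that of ACTB, so a high correlation here marks a like order of libraries and not a like size of change.

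Dividing a gene by ACTB in each library, as a qPCR calculation with beta-actin as the reference would, subtracts the difference of ACTB from that of the gene. The qPCR panel held 10 genes. All of them had a lower mean log2 value in HBF before the division, and 5 were lower without overlap, against 6.46% of all genes. Those 5 are on the study's own list of changed genes, chosen on these samples, whose directions were not used here. FASN, the fatty acid synthase, measured 980.3, 333 and 581 FPKM in the LBF libraries and 65.2, 51.0 and 134 in those of HBF, a difference of -2.91 (SE 0.48) as deposited and -4.42 (SE 0.54) after the division. ALDH1L1, an enzyme of folate metabolism, went from -2.32 to -3.83, LPL, the lipoprotein lipase, from -0.95 to -2.46 and ACAT1, a mitochondrial thiolase, from -0.90 to -2.41. INSR, the insulin receptor, was at 4.48 to 7.60 FPKM in LBF and 3.60 to 5.98 in HBF, a difference of -0.20 (SE 0.27), which became -1.71 after the division. At a log2 difference of -1 or less there were 4 of the 10 genes as deposited and 10 after the division. Of all genes, 2.76% were there as deposited and 85.0% after the division, so the second count is near that of any gene. None of the 10 had a higher mean log2 value in HBF, the direction that the division would have reduced.

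**Figure D4:**
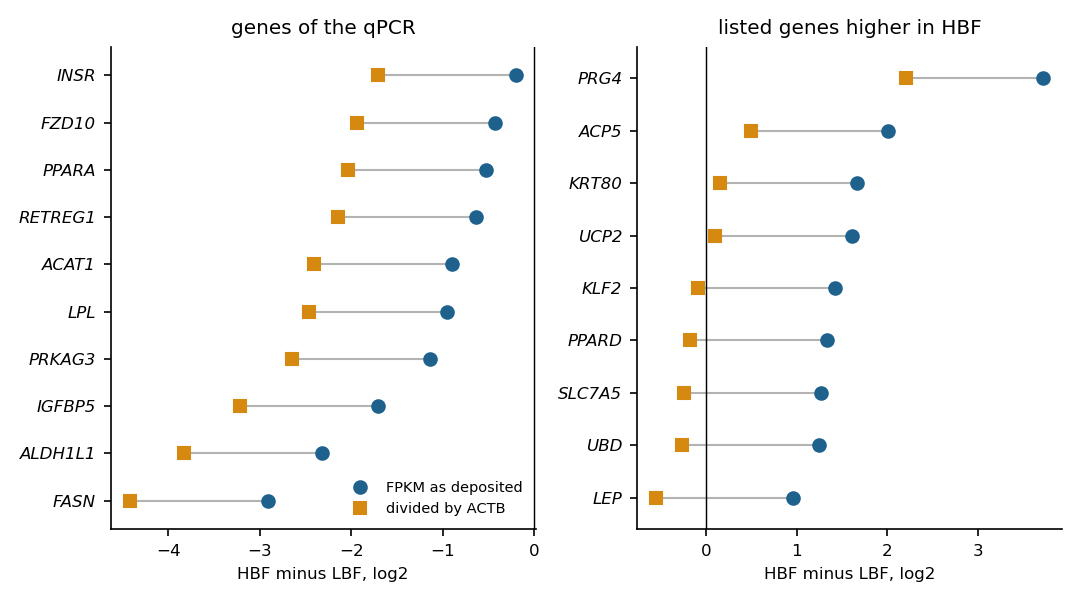
Log2 difference of HBF from LBF for each of the 10 genes measured by qPCR (left) and 9 genes higher in HBF that the study lists as changed in fat or muscle (right), as deposited (blue circles) and divided by ACTB in each library (orange squares). The 10 genes on the left are all at -1.71 or lower after division, and on the right 5 cross to below 0. Of all genes, 85.0% were at -1 or less after the division and 59.5% crossed to below 0.

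The same subtraction moved genes that were higher in HBF towards 0 or below it. Taken here were 10 genes that the study lists as changed in fat, in muscle (LEP) or in both, selected with their differences known. Of these, 9 differed by 1 or more as deposited and 1, PRG4, still did so after the division, against 3.27% and 0.111% of all genes. KLF2, an endothelial transcription factor, measured 32.2, 44.3 and 55.4 FPKM in the LBF libraries and 191, 95.1 and 84.3 in those of HBF, a difference of 1.42 that became -0.09. PPARD, a nuclear receptor of fatty acid oxidation, went from 1.33 to -0.18, and LEP, which encodes leptin, from 0.96 to -0.55. UCP2, a mitochondrial carrier, went from 1.60 to 0.10. PRG4, which encodes lubricin, measured 2.94, 0.921 and 1.03 FPKM in the LBF libraries and 38.2, 10.3 and 19.6 in those of HBF, and its difference went from 3.71 to 2.20. In total 5 of the 10 turned to below 0. Among all genes 9802 were above 0 as deposited, ACTB included, and 9665 turned to below 0.

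Of the genes that the study listed as changed in fat, 190 without ACTB had an identifier here and 186 were tested, a list chosen on these samples and no independent evidence of direction. As deposited, 61 were above 0 and 59 of these differed by 1 or more. After the division 32 of the 61 stayed above 0 and 4 at 1 or more. The genes at -1 or less numbered 110 before and 125 after. The same 1.51 is taken from each gene, so these shifts follow from the ACTB difference alone.

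Across all genes, the division moved the fat comparison as a whole. Below 0 were 39.6% of 16239 genes as deposited and 99.2% of 16238 after the division, which is 16102 genes, the same that had a smaller difference than ACTB. Genes at -1 or less made up 2.76% before and 85.0% after, and genes at 1 or more 3.27% and 0.111%. A higher mean in HBF turned into a lower one for 9665 genes, or 59.5%, the only direction that subtracting a positive value allows. With the mean of 14 reference genes in place of ACTB, 9016 genes were below 0.

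**Figure D5:**
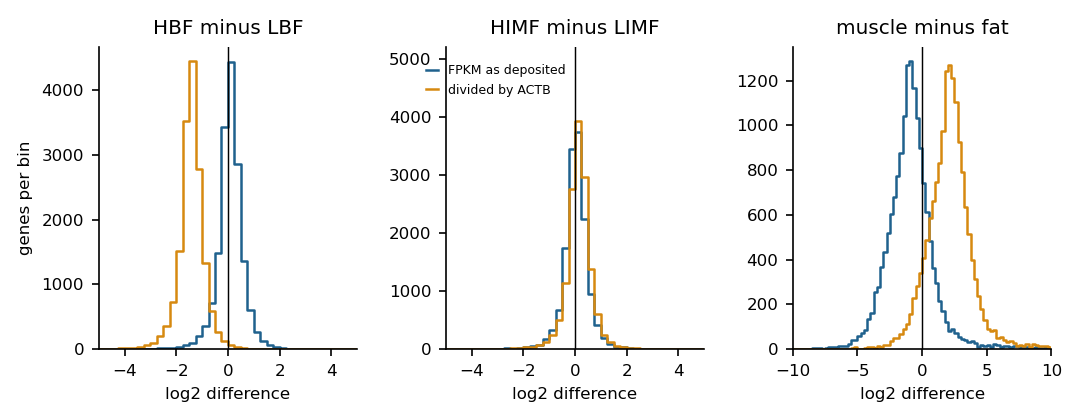
Number of genes in each bin of log2 difference, 0.25 wide, as deposited (blue) and divided by ACTB (orange), for HBF minus LBF, HIMF minus LIMF and muscle minus fat. The division shifts the median from 0.09 to -1.42 in fat, from 0.04 to 0.15 in muscle and from -0.97 to 2.10 between the tissues.

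In muscle the division changed little on average, with 46.0% of genes below 0 as deposited and 34.5% after, and 1641 genes, or 11.5%, turned from lower to higher. This share depended on the libraries: 4927 genes were below 0 after the division, but 2985 without LIMF replicate 2, 8434 without LIMF replicate 3, 2558 without HIMF replicate 1 and 7545 without HIMF replicate 2. The qPCR genes kept their direction except 1. RETREG1, a receptor for autophagy of the endoplasmic reticulum, went from -2.59 to -2.48 and PRKAG3, the muscle gamma subunit of AMPK, from 1.76 to 1.86. ACAT1 turned from -0.01 to 0.10, both within its SE of 0.57. At the limits of the study, limma called no gene as deposited, with 1004 genes at an unadjusted p under 0.05, and after the division 12 genes as higher and 6 as lower in HIMF, or 0.0840% and 0.0420% of 14291. The genes called higher include ACTA1 and CKM, whose values of exactly 0 in LIMF libraries can be failed estimates. KRT80, a keratin gene, was called lower only after the division. Its difference went from -3.13 (SE 0.48, adjusted p 0.362) to -3.02 (SE 0.55, adjusted p 0.00277) in limma. Its adjusted p thus fell while its difference shrank and its SE grew. A call made only after the division is therefore no added evidence. Between the tissues the shift was the largest, with 23.6% of genes above 0 as deposited and 90.5% after, and 10683 genes, or 66.9%, turned from lower to higher in muscle. RPL4 turned from -0.99 to 2.08, and INSR from -0.72 to 2.35.

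A reference should also take spread out of a group. The standard deviation of ACTB within groups was 0.25 on the log2 scale in fat and 0.50 in muscle, where the median of 11081 genes was 0.24 and 0.34. After division by ACTB the median was 0.33 in fat and 0.57 in muscle, and the spread became smaller for 21.1% and 19.0% of the genes. Division by RPL4 made it smaller for 38.0% of the genes in fat and 29.7% in muscle. ACTG1 did so for 36.5% in fat. For each of these references, most genes varied more within groups after the division than in FPKM, which is already scaled to the library.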

How the data were processed

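RNA of 12 libraries was sequenced, with 3 per group. After read filtering (fastp) and alignment (HISAT2) to Sscrofa11.1, the authors computed the deposited FPKM per Ensembl gene with Cufflinks 2.2.1. Counts were not used here, so the count test of the study (DESeq2) was replaced by limma 3.58.1 in R 4.3.3 (lmFit, eBayes with trend) on log2(FPKM + 0.1), for genes whose FPKM averaged above 0.05 over the libraries of the comparison. A fold change on this scale understates that of low genes. P-values were adjusted by Benjamini-Hochberg over all genes tested. Calls needed a log2 difference of at least 1 either way, with an adjusted p under 0.01 between groups and under 0.05 between tissues. Single values were also tested by exact permutation, two-sided.

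Of 31910 rows, 7 identifiers on 2 rows each were summed. Names were matched for 15027 of 31903 identifiers, and positions come from RefSeq. Division by ACTB subtracted its log2 value from that of each gene in the same library. ACTB, the gene lists and the tests were chosen with earlier results of these data known. Named were ACTB, the 10 genes of the qPCR, 10 genes that the study lists as changed, actin, reference and cytoskeleton genes, cell type markers and the 10 genes most correlated with ACTB. Other genes named were chosen after their values were seen. The fits were tested on simulated data. Alternatives were other pseudocounts, filters, scalings and references, a block for the replicate number, a fit of all libraries together, no trend in eBayes and leaving out each library in turn. Results for some of the listed genes are left out of the text and figures.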

Additional observations from a re-analysis of the deposited data

Results flagged for a closer look

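Named or listed genes whose libraries all moved one way in fat and all the other way in muscle were picked out for a closer look, and the difference between the effects was not tested. KRT80, a keratin gene, was at 0.0520 to 0.0676 FPKM in LBF and 0.279 to 0.613 in HBF, and at 1.37 to 4.80 in LIMF and 0.127 to 0.212 in HIMF. Its fat effect less its muscle effect was 4.79 on the log2 scale, a value that division by ACTB lowers, since ACTB differed by 1.51 in fat and -0.11 in muscle. FASN was at 1.07 to 1.39 FPKM in LIMF and 1.66 to 1.86 in HIMF, a difference of 0.54 (SE 0.24) against -2.91 in fat, and its fat effect less its muscle effect was -3.45. After division by ACTB its differences were 0.64 in muscle and -4.42 in fat. CASQ1, a calcium store protein of skeletal muscle, measured 0.1201 to 3.11 FPKM in the LBF libraries and 0.0421 to 0.113 in those of HBF. In muscle it measured 635 to 811 FPKM with low and 863 to 1200 FPKM with high intramuscular fat, and its fat effect less its muscle effect was -2.47. Its highest fat value was in LBF replicate 3, the library with skeletal muscle markers.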

How the results depend on the processing

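Under every alternative tried, ACTB kept its direction in fat (1.38 to 1.67 with a library left out) and its call between the tissues (-3.22 to -2.97 with a library left out, -2.51 with median-of-ratios scaling). In muscle it ranged from -0.37 to 0.20, turned to 0.20 without LIMF replicate 3 and to 0.10 without HIMF replicate 2, and passed no test. The genes below 0 in HBF, 16102 after division by ACTB, were 9016 with the mean of 14 reference genes, 10106 with the 13 not listed at 0 and 6437 as deposited, where the 10106 and the 6437 were chosen after seeing the data. Genes below 0 in HIMF, 4927, became 3013 at a mean FPKM above 1, 11263 with the mean of the reference genes (5212 with the 13 not listed at 0, since GAPDH is at 0 in LIMF replicate 2), and 2558 to 8434 with a library left out. Genes above 0 in muscle, 14450, became 5803, 6368 and 3767 with the same 3 references. The counts under a reference are set by how far that reference itself moved. Deviations of same-numbered libraries of the low and high groups had correlations of 0.034 to 0.138 in fat and -0.058 to 0.011 in muscle. Those of unlike number had -0.167 to 0.118 in fat and -0.118 to 0.149 in muscle. With so few pairs these values cannot show whether the numbers pair the libraries. Fat was not compared with muscle in this way. With the replicate block the ACTB differences were 1.51, -0.11 and -3.07, and genes at an unadjusted p under 0.05 went from 2206 to 2265 in fat and from 1004 to 934 in muscle. The precision is limited by 3 libraries a group, and no counting error can be given for FPKM.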

Other observations

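In muscle, 8 genes were above 1000 FPKM in a library and listed at 0 in another: GAPDH, ACTA1, COX1, ATP6, COX3, ALDOA, CKM and 1 without a name, and these were named after their values were seen. They include the main sarcomeric actin, the muscle creatine kinase and glycolytic enzymes that a muscle fibre uses throughout. ACTB was above 0 in all 12 libraries.

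The endothelial gene ESM1, a marker of growing vessel tips, was at 0.116 to 0.220 FPKM in LBF and 0.847 to 1.53 in HBF, a difference of 2.18 (SE 0.31, adjusted p 0.16, limma), and 0.67 after the division by ACTB. It is on the study's own list of genes changed in fat, chosen on these samples. The other 4 endothelial markers overlapped between the groups. After the division they were below 0, as were 99.2% of all genes.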
